A study of Mus musculus with 236 samples.

Results

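Cells of the deposited cell cycle class G1 made up 123 of the 406 mouse embryonic stem cells in the deposited expression table, with 41 of 201 cells at day 0.5 and 82 of 205 cells at day 2.5. They were selected by the class given in the authors' cell table, and their counts were read from the columns of the same name in the table of unique molecular identifiers (UMIs, tags that count captured RNA molecules). The other cells were classed Early-S (47), Mid-S (149), Late-S (37), G2 (24), M (22) and G0 (4).

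All cells came from a female line derived from blastocysts of a C57BL/6J mother and a CAST/EiJ father. The line was kept on gelatin in serum medium with LIF and 2i (CT99021, which inhibits GSK3, and PD0325901, which inhibits MEK), and differentiation was started by withdrawing LIF and 2i from cells plated on fibronectin. Both groups share this line and this protocol, and differ in the time after withdrawal, day 0.5 or day 2.5. HiRES, which reads chromatin contacts and RNA in the same single cell, was used to follow the onset of random X inactivation. The labels name no repeat culture of either day, so each day is treated as 1 sample, and cells are not replicates, so that the differences below have no replicate test and no p-value. The cell table has a column headed "sample" with 3 values, whose meaning is not given and which may stand for separate samples. These values are called batches 1 to 3 here: batch 1 held only day 0.5, batch 2 held both days and batch 3 held only day 2.5. Among libraries with a G1 cell, 16 held 2 G1 cells and 75 held a G1 cell with a cell of another class, and no cell name occurred in more than 1 library.

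G1 is the interval between mitosis and the start of DNA replication. D-type and E-type cyclins with their kinases phosphorylate the retinoblastoma protein there and free E2F factors, which switch on genes for nucleotide supply and replication ahead of S phase, while genes of the mitotic apparatus are kept off until later and many of them carry a promoter element known as the cell cycle genes homology region (CHR). Mouse embryonic stem cells are known for a short G1, which lengthens as they leave the naive state.

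G1 cells took a larger share of the population at day 2.5 than at day 0.5. They were 20.4% of the cells at day 0.5 (95% Clopper-Pearson interval 15.1 to 26.6%) and 40.0% at day 2.5 (33.2 to 47.1%). In batch 2, which held both days, 24 of 121 cells were G1 at day 0.5 (19.8%) and 46 of 122 at day 2.5 (37.7%). Batch 1 had 17 of 80 and batch 3 had 36 of 83, so that both batches of day 2.5 lay above both of day 0.5. Early-S and Mid-S cells took smaller shares at day 2.5 than at day 0.5, 7.32% against 15.9% and 30.2% against 43.3%. All intervals here and below cover counting error only.

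**Figure D1:**
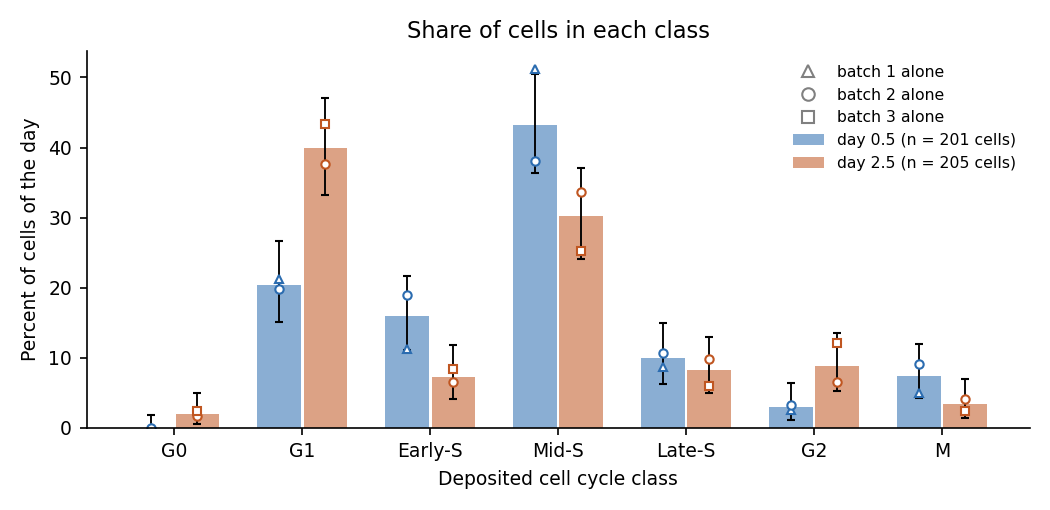
Bars give the percent of the day's cells in each deposited class (201 cells at day 0.5, 205 at day 2.5), error bars the 95% Clopper-Pearson interval, and open symbols the single batches. G1 is at 20.4% at day 0.5 and 40.0% at day 2.5, and both batches of day 2.5 lie above both batches of day 0.5.

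The class was set against its marker genes, with mixed results. Levels are UMIs of a gene scaled to a total of 1000000 UMIs in the group (CPM), and 95% Poisson intervals stand behind each of them. Ccne1, cyclin E1, which drives entry into S phase, stood at 88.6 CPM in G1 cells and 44.9 CPM in the other classes at day 0.5, and at 48.3 against 31.7 CPM at day 2.5. Ccnd1, cyclin D1, stood at 104.7 against 121.3 CPM at day 0.5 and at 50.1 against 27.3 CPM at day 2.5. Cdkn1a, the p21 inhibitor of cyclin-dependent kinases, stood at 34.2 against 29.9 CPM and at 99.3 against 108.2 CPM. By class at day 0.5 Ccne1 went from 171.9 CPM in M cells through 88.6 in G1 and 59.7 in Early-S to 35 in Mid-S cells. The level of Ccne1 lay above that of the other classes in every batch, while the batches of Ccnd1 at day 0.5 (log2 differences 0.09 and -0.42) and of Cdkn1a at day 2.5 (-0.60 and 0.47) differed in sign. Only Ccnd1 at day 0.5 and Cdkn1a at day 2.5 had the 200 UMIs required below for a gene to be compared. The markers alone do not set these cells apart, so they are called G1 cells here by their deposited class.

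The deposited cycle scores and the contact data describe the same cells further. The S phase score had a median of 0.261 in G1 cells against 0.0570 in the other classes at day 0.5, and 0.171 against -0.0818 at day 2.5. It was above 0 in 41 of 41 and in 72 of 82 G1 cells, and the G2/M score was below 0 in 39 of 41 and in 80 of 82. A reading of phase from the signs of these 2 scores would thus place 41 and 72 of the G1 cells in S phase and only 0 and 10 in G1. The share of contacts between different chromosomes had a lower median in G1 cells than in the other classes, 5.20% against 7.85% at day 0.5 and 7.34% against 9.83% at day 2.5. The sources used here do not give how the class was set, and the levels of cell cycle genes are a description of the class and may not be independent of it.

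Depth differed moderately. The median depth of G1 cells at day 0.5 was 11905 UMIs (6025 to 19481) against 14167 in the other classes, and at day 2.5 it was 13948.5 (529 to 26624) against 16734. Summed, G1 cells gave 496590 and 1138151 UMIs. The exon share of UMIs was alike, with medians of 26.5% against 26.1% and 23.9% against 24.3%. Of the G1 cells, 2 had under 5000 UMIs, both at day 2.5, and the counts without such cells are given with the settings.

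Within each day, G1 cells were compared with all other classes of the same day. A gene entered the comparison with at least 200 UMIs in the 2 groups together, and was counted as higher or lower where log2 of the ratio of (CPM + 5) passed 1.5-fold with the same sign in both batches of the day. Agreement in sign between batches is thus part of the rule for every gene counted, and is not separate support. At day 0.5, 166 of 3197 genes (5.19%) were higher in G1 cells and 226 (7.07%) were lower. At day 2.5, 287 of 3660 (7.84%) were higher and 207 (5.66%) were lower. The median log2 difference of all genes compared was 0.02 and 0.03. Of 2791 genes compared at both days, 50 were higher in G1 at both, which is 35% of the 143 higher at day 0.5 and 27.6% of the 181 higher at day 2.5, and 73 were lower at both, 40.3% of 181 and 48% of 152.

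Genes of DNA replication and nucleotide supply were higher in G1 cells. Of the 43 genes of a list of S phase genes, 25 had enough UMIs at day 0.5, and 9 of them were higher, against 5.19% of all genes, and 0 lower (median log2 difference 0.38, against 0.02 over all genes). At day 2.5, 16 of 23 were higher, against 7.84% of all genes, and 0 lower (median 0.72, against 0.03). The 9 higher at day 0.5 were Tyms, Dtl, Uhrf1, Wdr76, Atad2, Rrm2, Exo1, Casp8ap2 and Brip1, and all of these were also higher at day 2.5.

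Uhrf1, which carries maintenance DNA methylation onto newly copied strands, had the highest difference of the list at day 0.5. It stood at 189.7 CPM in G1 cells of batch 1 against 71.2 in the other classes, and at 234.5 against 89.2 CPM in batch 2. At day 2.5 it stood at 100.6 against 42 CPM over both batches. Both batches were alike at each day, with a log2 difference of 1.36 (ratio 2.67, interval 2.08 to 3.41) at day 0.5 and 1.17 at day 2.5. Its level in G1 cells was lower at day 2.5 than at day 0.5, with a log2 difference of -1.06.

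Tyms, thymidylate synthase, which makes the thymidine nucleotide, stood at 189.7 against 80.6 CPM in batch 1 and 161 against 84 CPM in batch 2 at day 0.5, a log2 difference of 1.03. At day 2.5 it stood at 123 against 55.2 CPM, a difference of 1.09. Rpa1, the large subunit of the complex that coats single-stranded DNA, stood at 338.5 against 117.4 CPM in batch 2 and at 310.2 against 125.1 CPM in batch 3 of day 2.5 (log2 difference 1.39). The same sign in both batches was required of Rpa1, as of every gene counted. Rrm2, a subunit of ribonucleotide reductase, was higher by 0.65 and 1.08 on the log2 scale at the 2 days. Dtl, the substrate receptor of a ubiquitin ligase that clears licensing factors in S phase, was higher by 0.83 and 1.31.

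Single cells gave the same order for Tyms, but from the same counts that picked the gene, so this is not separate support. The same holds for Nusap1 below. After each cell was thinned to 5000 UMIs, Tyms had a UMI in 24 of 41 G1 cells (58.5%) and in 47 of 153 other cells (30.7%) at day 0.5, and in 36 of 80 (45%) against 19.5% of the others at day 2.5. Before thinning the shares were 85.4% against 58.8%, and 67.1% against 55.3%. Hba-a1, an alpha-globin gene that these cells should lack, had no UMI in any cell, which limits the share of G1 cells with a UMI, not of cells expressing the gene, to 7.32% at day 0.5 and 3.66% at day 2.5 at the 3 cells taken as the limit for a count of 0.

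Among the classes, the summed level of the S phase list was high in G1 cells but not highest there. At day 0.5 it was 9206 CPM in G1, 8626 in Early-S, 6349 in Mid-S, 7326 in Late-S, 5400 in G2 and 11058 in M cells. At day 2.5 it was 7710 CPM in G1, 6871 in Early-S, 3985 in Mid-S, 5598 in Late-S, 4096 in G2, 11064 in M and 3239 in G0 cells. M cells stood above G1 cells at both days, and G1 cells stood above each of the S and G2 classes. Both batches of a day were alike in G1 cells, with 9024 and 9340 CPM at day 0.5 and 7851 and 7561 CPM at day 2.5.

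The licensing genes, whose products load the replicative helicase onto DNA in G1, were counted as a list of their own. It overlaps with the S phase list, so the counts of these lists are not independent. At day 0.5, 0 of 10 genes compared were higher and 1, Dbf4, an activator of the kinase that fires origins, was lower (56.4 against 101.4 CPM, log2 difference -0.79), against 5.19% and 7.07% of all genes. At day 2.5, 5 of 9 were higher, namely Mcm4, Mcm6, Mcm10, Orc1 and Orc4, against 7.84% of all genes, and 0 were lower (median 0.59). Mcm6, a helicase subunit, stood at 199.4 CPM in G1 cells and 94.7 CPM in the other classes at day 2.5, against 205.4 and 180.8 CPM at day 0.5, so its level in G1 cells was alike at the 2 days and that of the other classes was lower at day 2.5. The median of this list at day 2.5 was -0.054 where every other class had equal weight, and M cells, at 4760 CPM for the list, were the class above G1 cells at 2103 CPM. The difference between the days was not tested.

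**Figure D2:**
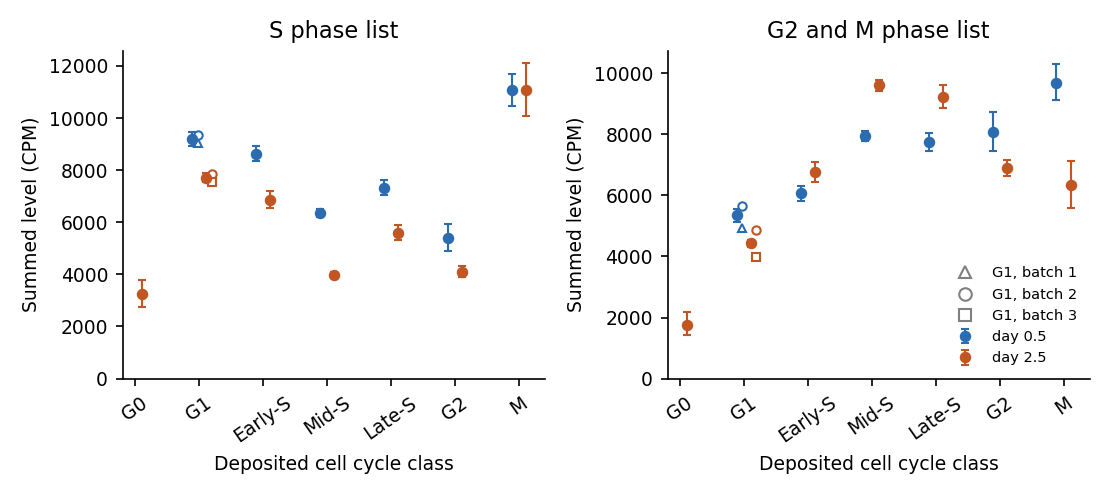
Points give the summed level in CPM of the S phase list (left) and the G2 and M phase list (right) in each deposited class at each day, with 95% Poisson intervals, and open symbols give G1 cells of single batches. The S phase list is higher in G1 than in the S and G2 classes, and the G2 and M phase list is lower in G1 than in every class but G0.

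Genes of mitosis were lower in G1 cells. Of the 69 genes of a list of G2 and M phase genes, 17 of 36 compared at day 0.5 were lower and 0 higher (median log2 difference -0.51), and 24 of 37 at day 2.5 were lower and 0 higher (median -0.99). Over all genes 7.07% and 5.66% were lower at the 2 days. Of 34 compared at both days, 15 were lower at both: Nusap1, Tpx2, Cenpf, Tacc3, Bub1b, Rangap1, Cdca2, Ect2, Kif23, Hmmr, Ckap5, Cenpe, Prc1, Kif4 and Knl1. Their products build the spindle, the kinetochore and the contractile ring.

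Hmmr, a spindle pole protein, had the largest difference of the list at each day. It stood at 23.7 CPM in G1 cells against 125.4 CPM in batch 1 and 21 against 110 CPM in batch 2 at day 0.5, and at 12 against 124.5 CPM in batch 2 and 23.4 against 149.7 CPM in batch 3 at day 2.5. Its log2 differences at the 2 days were -2.17 and -2.63 (ratios 0.189, interval 0.0932 to 0.344, and 0.130, interval 0.0783 to 0.205). By class at day 0.5, Hmmr stood at 43 CPM in Early-S and 137.4 CPM in Mid-S cells, and the G1 level was the lowest of the classes.

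Tpx2, which activates Aurora A kinase at the spindle, stood at 54.5 against 257.3 CPM and 56 against 208.3 CPM in the batches of day 0.5, and at 73.9 against 269.9 and 52.1 against 305.9 CPM at day 2.5. Its log2 differences were -1.97 and -2.09. Nusap1, a microtubule-binding protein of the spindle, stood at 9.48 against 186.6 CPM in batch 1 and 66.5 against 149.0 CPM in batch 2 at day 0.5, so that its difference was larger in batch 1, and it was lower by -2.29 on the log2 scale at day 2.5. Bub1b and Cenpe, which act in the spindle checkpoint and in chromosome movement, had log2 differences of -0.60 and -0.90 at day 0.5 and of -1.74 and -1.77 at day 2.5. Top2a and Mki67, which are widely used as proliferation markers, did not pass 1.5-fold, with log2 differences of -0.26 and -0.39 at day 0.5 and -0.55 and -0.58 at day 2.5.

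The summed G2 and M phase list stood at 5344 CPM in G1 cells at day 0.5, against 6065 in Early-S, 7948 in Mid-S, 7740 in Late-S, 8074 in G2 and 9697 in M cells. At day 2.5 it stood at 4426 CPM in G1, 6759 in Early-S, 9607 in Mid-S, 9230 in Late-S, 6894 in G2, 6327 in M and 1765 in the 4 G0 cells. G1 cells were thus the lowest class at day 0.5 and the lowest but G0 at day 2.5. In single cells after thinning to 5000 UMIs, Nusap1 had a UMI in 3 of 41 G1 cells (7.32%) against 71 of 153 others (46.4%) at day 0.5, and in 11 of 80 (13.8%) against 50.8% of the others at day 2.5.

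**Figure D3:**
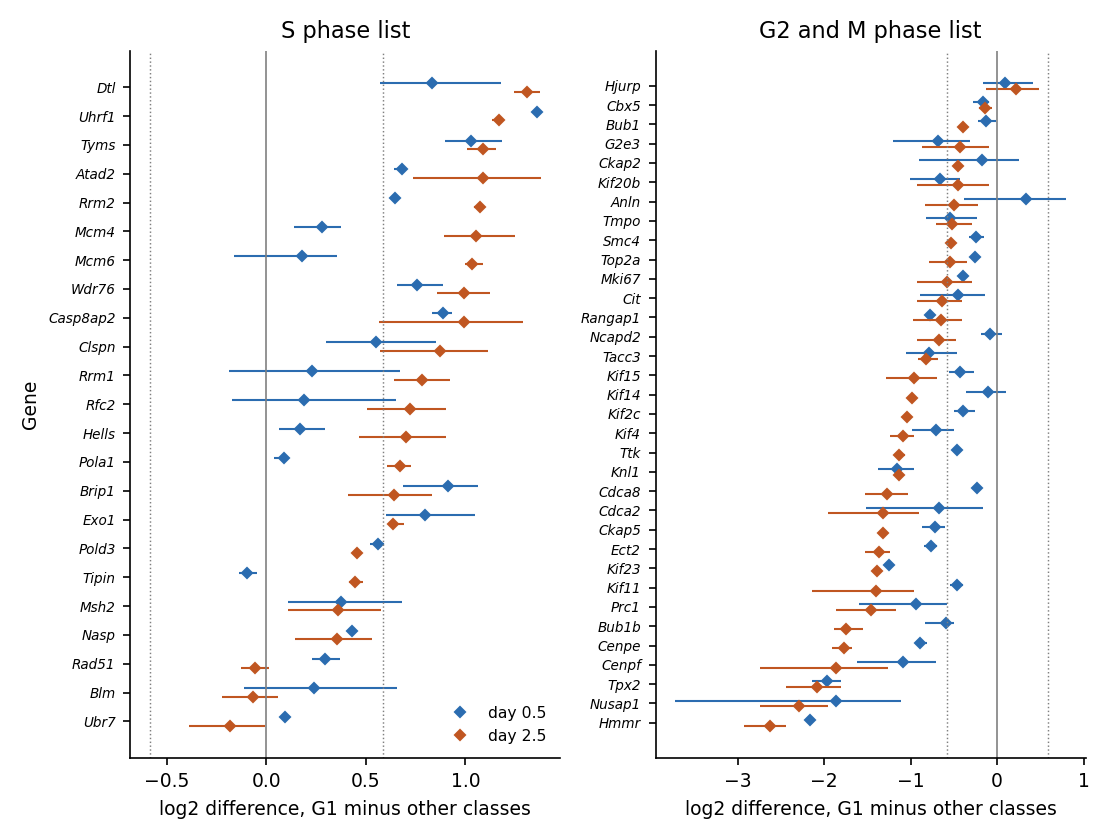
Diamonds give the log2 difference of G1 cells minus the other classes for each gene of the S phase list (left) and the G2 and M phase list (right) compared at both days, lines join the 2 batches of the day, and dotted lines mark 1.5-fold. Hmmr, Nusap1 and Tpx2 lie farthest left at day 2.5, and Dtl and Uhrf1 farthest right.

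Promoters of these genes are shown because the list genes moved together by phase. Promoter windows from RefSeq (GRCm38.p6) ran from 250 bases before to 50 bases after an annotated start of a gene. They were found for 31 of the 43 S phase genes and 61 of the 69 G2 and M phase genes. A gene can have more than 1 window and was counted once, with a match in any of them. The CHR letters TTTGAA, on either strand, were found for 43 of 61 genes of the G2 and M phase list (70.5%). They were found for 6 of 31 genes of the S phase list (19.4%), against 20.2% of 27025 genes. The E2F letters searched were TTTCCCGC, TTTGGCGC, TTTCGCGC, TTTGCCGC and TTTCCGCC on either strand. These were found for 13 of 31 genes of the S phase list (41.9%) and 6 of 61 of the G2 and M phase list (9.84%). Over all genes the share was 3.78%. The letters CCAAT, on either strand, were in 71% and 78.7% of the 2 lists against 41.1% of all genes. Among genes past 1.5-fold at both days, 10 of 13 mitotic genes with a window held TTTGAA, and 3 of 7 S phase genes held an E2F motif. A match describes the letters only.

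The following windows belong to 2 genes higher in G1 cells at both days and 3 genes lower at both, and capitals mark the E2F letters in the first 2 and the CHR letters in the others, read on either strand. Casp8ap2 (chr4:32615220-32615519, plus strand) encodes a protein tied to histone messenger RNA supply, Dtl (chr1:191575495-191575794, minus strand) was described above, Hmmr (chr11:40733388-40733687, minus strand) and Kif23 (chr9:61946750-61947049, minus strand), a kinesin of the midbody, were among the lower genes, as was Cenpf (chr1:189688037-189688336, minus strand), a kinetochore protein.
Casp8ap2: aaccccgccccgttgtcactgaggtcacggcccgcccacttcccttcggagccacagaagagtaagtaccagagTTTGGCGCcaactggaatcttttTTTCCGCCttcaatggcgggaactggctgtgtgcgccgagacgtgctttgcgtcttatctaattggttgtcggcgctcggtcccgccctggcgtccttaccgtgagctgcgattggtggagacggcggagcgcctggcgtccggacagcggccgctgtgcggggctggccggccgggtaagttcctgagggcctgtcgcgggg
Dtl: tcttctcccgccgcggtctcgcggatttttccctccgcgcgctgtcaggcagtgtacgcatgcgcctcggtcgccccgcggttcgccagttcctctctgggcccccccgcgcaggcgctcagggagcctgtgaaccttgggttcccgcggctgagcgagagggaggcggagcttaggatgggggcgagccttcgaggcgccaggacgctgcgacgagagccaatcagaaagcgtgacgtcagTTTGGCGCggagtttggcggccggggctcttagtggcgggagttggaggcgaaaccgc
Hmmr: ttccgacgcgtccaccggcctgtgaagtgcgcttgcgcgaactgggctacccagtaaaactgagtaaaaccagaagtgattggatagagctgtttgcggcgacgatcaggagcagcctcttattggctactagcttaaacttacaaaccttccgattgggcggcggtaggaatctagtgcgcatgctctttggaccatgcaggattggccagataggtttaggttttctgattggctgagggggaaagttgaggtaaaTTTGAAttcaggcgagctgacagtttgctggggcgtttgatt
Kif23: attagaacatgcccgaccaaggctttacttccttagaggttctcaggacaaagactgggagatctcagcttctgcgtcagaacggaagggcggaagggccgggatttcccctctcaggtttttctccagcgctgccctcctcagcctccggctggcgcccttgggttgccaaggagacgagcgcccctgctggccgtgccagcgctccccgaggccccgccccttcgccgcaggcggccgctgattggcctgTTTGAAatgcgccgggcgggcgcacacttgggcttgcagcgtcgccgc
Cenpf: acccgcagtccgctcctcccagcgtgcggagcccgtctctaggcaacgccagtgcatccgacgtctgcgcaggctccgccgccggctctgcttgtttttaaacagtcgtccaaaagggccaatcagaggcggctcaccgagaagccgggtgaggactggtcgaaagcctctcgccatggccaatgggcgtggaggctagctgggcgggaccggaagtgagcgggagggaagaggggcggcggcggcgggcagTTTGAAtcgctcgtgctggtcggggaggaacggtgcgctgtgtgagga
In Hmmr, Kif23 and Cenpf the CHR letters begin at positions 8, 2 and 2, and in Dtl the E2F letters begin at -8. Positions are counted from the annotated start on which each window is set, which need not be the outermost end of the gene.

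Few regulators of G1 itself passed 1.5-fold. The 30 genes listed summed to 2851 CPM in G1 cells (interval 2705 to 3004) against 2407 CPM in the other classes at day 0.5. At day 2.5 they summed to 2683 CPM (2589 to 2780) against 2364 CPM, and G1 cells stood above the other classes in each batch. M cells of day 0.5, at 2813 CPM, and Early-S and G0 cells of day 2.5, each at 2599 CPM, lay close to G1 cells. Of the 30 genes, 9 were compared at each day. At day 0.5 only E2f2, an activating E2F factor, was higher (209.4 against 115.8 CPM, log2 difference 0.83), and at day 2.5 none passed 1.5-fold. Over all genes 5.19% and 7.84% were higher at the 2 days. E2f2 was too low at day 2.5 for the comparison, at 30.8 against 8.06 CPM. Tfdp2, the partner of E2F factors, stood at 330.3 against 220.7 CPM at day 0.5, a log2 difference of 0.57 and so just inside the threshold. Cdk6, a kinase of D-type cyclins, stood at 243.7 against 323.9 CPM and at 342.7 against 338.4 CPM. Rb1, the retinoblastoma gene, stood at 104.7 against 67.4 CPM at day 0.5, under the minimum of UMIs, and at 177.5 against 188.2 CPM at day 2.5.

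Genes outside the cycle lists headed the ranking at both days. At day 0.5 the 10 genes with the highest difference were Tnfaip8, Uhrf1, Clcn5, Tead4, Nmt2, Sh3rf1, Grk5, Erbin, Tyms and Wdr44, at log2 differences from 1.02 to 1.42. At day 2.5 the 10 ranged from 1.39 to 1.87 and included Nova1, Ebf1, Mbnl3, Epha7, Cacnb4, Slit2, Tnfaip8, Rpa1 and Zfp521. Tnfaip8, a gene induced by tumour necrosis factor, was among the 10 at both days. It stood at 211.0 against 73.2 and 197.8 against 72.7 CPM in the batches of day 0.5, and at 378.0 against 117.8 and 361.4 against 163.2 CPM in those of day 2.5. The same sign in the batches of each day was required for Tnfaip8 to be counted.

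Tead4, a partner of YAP that is known from the trophectoderm, stood at 207.4 CPM in G1 cells and 85.2 CPM in the others at day 0.5 (log2 difference 1.24, batches 1.02 and 1.43). The list of 11 such markers summed to 288.0 against 138.2 CPM at day 0.5 with 6 of its genes at 0 in G1 cells, so that Tead4 made up most of the level of the list in G1 cells. At day 2.5 the list stood at 40.0 against 25.6 CPM.

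Several of the genes at day 2.5 are known from nerve cells and axon guidance. Nova1, a neuronal splicing factor (chromosome 12, 46697895 to 46819480), stood at 128.9 against 26.8 CPM in batch 2 and 141.1 against 42.1 CPM in batch 3, the highest difference of the day (1.87; ratio 4.06, interval 3.03 to 5.49). Ebf1, a transcription factor of B cell and neuronal lineages, stood at 135.7 against 54.5 and 149.2 against 30.4 CPM. Slit2, a secreted axon guidance ligand, stood at 158.1 against 54.9 and 204.1 against 76 CPM, and Epha7, an ephrin receptor, at 101.4 against 38.6 and 125.9 against 33.9 CPM. A G1 level above the other classes in both batches was required for these genes to be counted. Sox11, a neural transcription factor, stood at 118.6 against 57.6 CPM (log2 difference 0.98), and was 1 of 2 genes of a neuroectoderm list of 13 with enough UMIs at that day. The 11 of its genes in the table summed to 351.7 against 235.0 CPM at day 2.5 and 319.2 against 400.8 CPM at day 0.5, with 1 and 4 of its genes at 0 in G1 cells. These genes were named by the size of their difference, not as a neural list.

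Markers of other cell types were summed in the same cells. The 13 genes of a primitive streak list in the table stood at 32.2 and 53.6 CPM at the 2 days, with 10 and 6 genes at 0, and 10 genes of the 2-cell-like state gave 1 and 2 UMIs. A primitive endoderm list of 15 genes stood higher in G1 cells, at 550.8 (interval 487.4 to 620.0) against 465.8 CPM at day 0.5 and at 630.3 (585.0 to 678.1) against 465.8 CPM at day 2.5, and 4 and 2 of its genes were at 0 in G1 cells. At day 2.5 this held in batch 2 (673.3 against 476.6 CPM) and in batch 3 (585.2 against 450.9 CPM). Sox17, which defines that lineage, had a UMI in 0 of 41 and 2 of 82 G1 cells. A fibroblast list stood at 500.4 against 449.4 CPM and 123.4 against 85 CPM, and its fibrillar collagen Col3a1 had a UMI in 0 and 2 G1 cells. The part of such cells in the results was not tested.

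Among chromosome structure genes, Ncapg2, a subunit of condensin II, was higher at both days (231.6 against 143.0 CPM and 233.3 against 127.4 CPM, log2 differences 0.68 and 0.85), and Ncapd3 of the same complex was higher at day 2.5 (180.1 CPM in G1 cells, log2 difference 0.76). Ncapd2, a subunit of condensin I, was lower at day 2.5 (78.6 against 128.7 CPM, -0.68). Ctcf, the insulator protein at which loops are anchored, was lower at day 2.5 (120.4 against 200.7 CPM, log2 difference -0.71, batches -0.85 and -0.61) and stood at 138.9 against 170.9 CPM at day 0.5. Esco2, which acetylates cohesin during replication, was lower at day 2.5 (-0.83), and Hdac8, which removes that mark, was lower at day 0.5 (-0.70). The core cohesin genes Smc1a, Smc3 and Rad21 stayed within 1.5-fold at both days. In all, 1 of 17 genes compared was higher and 1 lower at day 0.5, and 2 of 19 were higher and 3 lower at day 2.5, shares to be read against 5.19% and 7.07%, and 7.84% and 5.66%, over all genes.

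Of the p53 response genes, Mdm2, the ubiquitin ligase that degrades p53, was lower in G1 cells at day 2.5, at 155.5 against 364.5 CPM (log2 difference -1.20, batches -0.83 and -1.60), and was the only one of 6 compared to pass 1.5-fold. At day 0.5 it stood at 92.6 against 109.1 CPM and its batches differed in sign (0.41 and -0.70). Of 18 silencing factors listed as partners of Xist, 0 of 11 compared passed 1.5-fold at day 0.5, and at day 2.5 1 of 14 was higher and 1 lower, shares near the 7.84% and 5.66% of all genes. Ezh2, the methyltransferase of Polycomb complex 2, was higher at day 2.5 (460.4 against 238.3 CPM, 0.94) and Wtap, of the RNA methylation complex, was lower (51 against 85 CPM, -0.68).

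Few pluripotency genes passed 1.5-fold between G1 and the other classes. Of 8 naive genes compared at day 0.5, 0 passed 1.5-fold, with Esrrb at 378.6 against 329.7 CPM and Zfp42 at 298.0 against 341.5 CPM. At day 2.5 none of the 18 naive genes had enough UMIs, and their summed level was higher in G1 cells, at 233.3 (interval 206.1 to 263.1) against 151.6 CPM (135.2 to 169.5). It was higher in batch 2 (209.6 against 147.1 CPM) and in batch 3 (258.0 against 157.9 CPM), and at day 0.5 it was 2700 against 2639 CPM. Among general pluripotency genes Tdgf1, a Nodal co-receptor, was lower at day 0.5 (152.0 against 233.4 CPM, batches -1.46 and -0.15) and Epcam, an adhesion molecule, was lower at day 2.5 (81.7 against 135.0 CPM, -0.69), out of 9 and 8 genes. Of the formative and primed genes, Lin28b and Cdh2 were higher at day 0.5 (0.67 and 0.83) and Dnmt3a, which sets new DNA methylation, was higher at day 2.5 (317.6 against 206.3 CPM, 0.61), out of 12 and 11 compared. Over all genes 5.19% and 7.84% were higher, and 7.07% and 5.66% lower, so 1 of 8, 9 or 11 genes is close to those shares.

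Very long genes were more often lower than higher in G1 cells. This grouping was chosen after the values were seen, when genes such as Immp2l and Wwox stood among the lowest. At day 0.5, 52 of 155 genes of 300 to 600 kb (33.5%) and 20 of 50 genes over 600 kb (40.0%) were lower, against 7.07% of all genes, and 0 of the latter were higher. Their median log2 differences were -0.35 and -0.34, while genes of 100 to 300 kb had a median of 0.10. At day 2.5, 42 of 234 genes of 300 to 600 kb (17.9%) and 27 of 84 over 600 kb (32.1%) were lower. The share over all genes was 5.66%, and the medians were -0.09 and -0.37. In the same groups 14 (5.98%) and 2 (2.38%) were higher, against 7.84% of all genes. A gene length from RefSeq was found for 98.1% and 98.3% of the genes compared.

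Wwox, an oxidoreductase gene at a common fragile site (chromosome 8, 114439635 to 115352712, 913078 bases), stood at 237.1 against 777.4 CPM in batch 1 and 168.0 against 727.9 CPM in batch 2 at day 0.5, and at 177.0 against 736.8 and 181.6 against 703.5 CPM at day 2.5. Its log2 differences at the 2 days were -1.90 and -1.98. Between the classes of day 0.5 Wwox stood at 354.6 CPM in Early-S, 786.2 in Mid-S, 1051 in Late-S, 2035 in G2 and 90.5 in M cells, so the G1 level lay between those of M and Early-S cells. Immp2l, a mitochondrial peptidase gene of 931528 bases on chromosome 12 (41024061 to 41955588), stood at 199.2 against 745.5 and 108.5 against 697.6 CPM in the batches of day 0.5 (log2 difference -2.25). Over its classes the order was the same, from 36.2 CPM in M through 147.0 in G1, 331.9 in Early-S and 787.5 in Mid-S to 1102 in Late-S and 1128 in G2 cells. The 10 lowest genes of day 0.5 were Immp2l, Hmmr, Slc35f1, Tpx2, Wwox, Nusap1, Nxph1, Hpse2, Tmem132d and Sdk1, of which 3 are on the mitotic list and 7 are longer than 300 kb. Nxph1 was at a log2 difference of 0.28 where only libraries with a G1 cell and a cell of another class were used, and -1.82 over all cells.

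As a share of all UMIs, the 152 genes over 600 kb took 2.17% in G1 cells and 2.85% in the other classes at day 0.5 (batches 2.17% against 2.97%, and 2.16% against 2.74%), a ratio of 0.761 (interval 0.745 to 0.777). At day 2.5 they took 3.34% against 4.42% (batches 3.42% against 4.38%, and 3.25% against 4.48%), a ratio of 0.754 (0.745 to 0.763). M cells had 0.881% at each day and G2 cells 3.45% and 5.18%. In medians over cells G1 had 2.22% at day 0.5, below the 2.41% of Early-S, and 3.32% at day 2.5, below the 4.47% of Early-S. Genes of up to 30 kb took 21.9% against 22% and 18.6% against 19.3% of UMIs. The share of UMIs on exons, given above, was alike in G1 and the other classes.

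**Figure D4:**
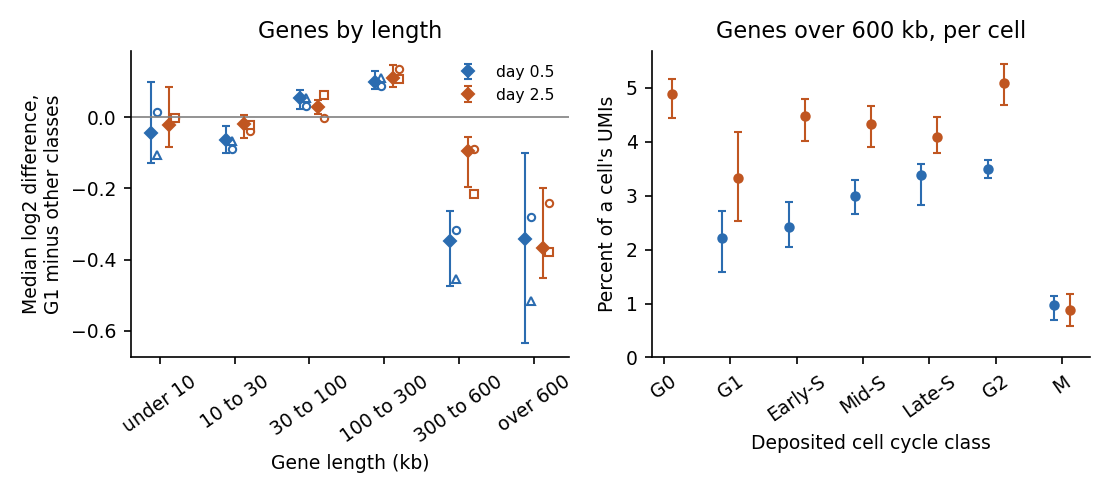
Left, diamonds give the median log2 difference of G1 minus the other classes by gene length with 95% order-statistic intervals over genes, and open symbols the batches (triangle 1, circle 2, square 3). Right, points give the median percent of a cell's UMIs on the 152 genes over 600 kb with the quartiles over cells; G1 lies between M and Early-S at both days.

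Inside G1, day 2.5 was compared with day 0.5, with the sign checked in batch 2. Of 2155 genes, 474 (22%) were higher at day 2.5 and 307 (14.2%) lower, and the median log2 difference was 0.05. Most of these genes also passed 1.5-fold in the other classes: of 2152 genes compared in both, 384 of 471 higher in G1 (81.5%) and 220 of 307 lower (71.7%) did so. The excess of higher over lower genes depends on the minimum of UMIs, which is set on both days together. G1 cells gave 1138151 UMIs at day 2.5 and 496590 at day 0.5. A gene seen mainly at day 2.5 therefore reached the minimum at a lower CPM than one seen mainly at day 0.5. With no minimum the order was reversed, with 8.82% higher and 9.93% lower of 39300 genes. These counts thus do not show that more genes rose than fell. The 2 days differ in time of culture and each is 1 sample, so a difference between days and one between cultures cannot be told apart.

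The 10 genes with the highest difference were Sema6a, Zfp608, Kcnj3, Ror1, Arhgap6, Xist, Zfp521, Pdzrn3, Cacnb2 and Adamts6. Sema6a, a transmembrane axon guidance semaphorin, had 2 UMIs in all G1 cells of day 0.5 (4.74 and 3.50 CPM in the batches) and stood at 2476 and 2611 CPM in those of day 2.5, a log2 difference of 8.14 on the CPM + 5 scale with a ratio interval from 175 to 5214. Kcnj3, a potassium channel, and Zfp521, a zinc finger factor, had 1 and 3 UMIs at day 0.5 and stood at 178.4 and 221.4 CPM at day 2.5, with ratio intervals from 15.7 to 3515 and from 12.4 to 179. Ror1, a receptor of Wnt5a, stood at 19 and 24.5 CPM at day 0.5 and at 683.9 and 718.3 CPM at day 2.5 (4.70). Pdzrn3, a ubiquitin ligase, stood at 23.7 and 45.5 CPM and then at 811.9 and 812.7 CPM (4.31). The batches of each day did not overlap with those of the other in any of these genes. They were picked by the size of the day difference, with its sign in batch 2 required, so this is not separate support.

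The 10 genes with the lowest difference were Jam2, Esrrb, Zeb1, Enox1, Bnc2, Megf11, Morc1, Gfod1, Lncenc1 and Meis2. Jam2, a junctional adhesion molecule (chromosome 16, 84774123 to 84826380), stood at 611.7 and 497.0 CPM in G1 cells of day 0.5 and at 13.7 and 5.39 CPM in those of day 2.5 (log2 difference -5.23). Esrrb, a nuclear receptor of the naive network, stood at 374.6 and 381.5 CPM and then at 6.87 and 15.3 CPM (-4.58). Zeb1, a repressor known from the epithelial to mesenchymal transition, stood at 403.1 and 448.0 CPM and then at 22.3 and 10.8 CPM (-4.32). Of the naive list, the 3 genes compared, Esrrb, Morc1 and Tet2, were all lower at day 2.5, against 14.2% of all genes. These 3 reached the minimum of UMIs mainly through their level at day 0.5. Their count therefore follows in part from the minimum and is not support for a fall of the list. Of 8 formative and primed genes compared, 4 were higher, against 22% of all genes: Otx2 (70.5 to 166.9 CPM), Dnmt3b (666.5 to 1496 CPM), Lin28b (300 to 690.6 CPM) and Pim2 (174.2 to 362.9 CPM).

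The cycle genes of G1 cells were set against the 22% higher and 14.2% lower of all genes between the days. Of 19 S phase genes compared, 0 were higher and 2, Uhrf1 and Blm, were lower at day 2.5 (median -0.13), and of 9 G2 and M phase genes 2 were higher (G2e3 and Cit) and 2 lower (Ect2 and Cbx5). The p53 target Trp53inp1 went from 36.2 to 239.9 CPM and Mdm2 from 92.6 to 155.5 CPM. Genes of 300 to 600 kb were higher at day 2.5 in 97 of 160 (60.6%, median 0.93), against 22% of all genes.

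The day difference inside G1 was then set against that in the other classes. Of 2152 genes, the difference between the 2 log2 values passed 1.5-fold upward in 146 (6.78%) and downward in 5.02%, with the same sign in batch 2. Tet2, which oxidises methylated cytosine, stood at 390.7 CPM in G1 and 447.8 CPM in the other classes at day 0.5, and at 48.3 against 20 CPM at day 2.5, so that the day difference was -2.89 in G1 and -4.18 in the others. Nfia, a transcription factor of glial and neural cells, went from 42.3 to 306.6 CPM in G1 and from 54.6 to 130.9 CPM in the others. Meg3, a maternally expressed imprinted RNA, went from 589.0 to 1226 CPM in G1 and from 444.1 to 2159 CPM in the others. Foxo3, a forkhead factor of quiescence and stress, stood at 316.2 and 359.8 CPM in G1 and at 203.5 and 502.7 CPM in the others. These 4 genes thus differed in the size of the day difference, and the sizes were not tested.

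Xist, the long non-coding RNA that starts X inactivation in cis, was lower in G1 cells than in the other classes at day 2.5. It stood at 896.1 against 1780 CPM in batch 2 and at 786.6 against 1960 CPM in batch 3, and at 842.6 CPM (959 UMIs) against 1856 CPM (3800 UMIs) over both, a ratio of 0.454 (interval 0.423 to 0.488). At day 0.5 it stood at 32.2 CPM (16 UMIs) against 43.5 CPM (94 UMIs), a difference not detectable at this depth (ratio 0.740, interval 0.406 to 1.27). At day 2.5 the level by class was 1417 CPM in Early-S, 1825 in Mid-S, 1972 in Late-S and 2480 in G2 cells, so that G1 was the lowest of these, with 1163 CPM in the 7 M cells, where 1 cell held 35 of 49 UMIs, and 38.8 CPM in the 4 G0 cells.

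The share of cells with a Xist UMI did not show this, at 64 of 82 G1 cells (78%) and 94 of 123 others (76.4%). The difference lay in the level per cell. In cells of the authors' allele table, G1 cells of day 2.5 had a lowest, median and highest level of 0, 1191 and 3260 CPM (52 cells), and the others 0, 2918 and 6976 CPM (70 cells). The medians were 2277 CPM in Early-S, 2932 in Mid-S, 3173 in Late-S and 4352 in G2 cells. The ratio of summed levels was 0.439 inside that table, and alike in its batches (0.439 and 0.438). The authors' pseudotime in these cells had a median of 11.5 in G1 (interval 11.4 to 12.1) and 12.2 in the others (11.99 to 12.3). In batch 2 the pseudotime was 11.4 (interval 10.99 to 11.6) against 12.2 (11.96 to 12.6). In batch 3 it was 12.3 (11.5 to 12.5) against 12.05 (11.6 to 12.6), with overlapping intervals. Of the authors' clusters, C5 held 32 of the 52 G1 cells and 38 of the 70 others, and C4 held 9 and 20. The part of pseudotime and cluster in the Xist difference was not tested. The 30 G1 cells outside it stood at 38.6 CPM, close to the level of day 0.5, against 106.4 CPM in the 53 others, where 1 M cell held 35 of the 92 UMIs. The sources used here do not give how cells were chosen for the allele table.

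The neighbours of Xist did not all share its difference. Jpx, an RNA gene beside Xist, was lower at day 2.5 (50.1 against 100.8 CPM, log2 difference -0.94), Ftx stood at 783.3 against 1083 CPM (-0.47), and Tsix, the antisense partner, at 411.0 against 438.9 CPM (-0.09). Strand use in counting is not given, so reads of Xist and Tsix in their overlap may not be told apart.

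One-sided expression of the X was read from the allele table as the share of X-linked UMIs from the chromosome with more of them, and a cell was called one-sided at 80% or more of at least 20 UMIs. At day 0.5, 0 of 41 G1 cells were one-sided (interval 0 to 8.60%), and the median share of the major chromosome was 53.3%. At day 2.5, 19 of 51 G1 cells (37.3%, interval 24.1 to 51.9%) and 35 of 70 other cells (50.0%, 37.8 to 62.2%) were one-sided. The batches gave 10 of 29 against 24 of 42, and 9 of 22 against 11 of 28, which is 34.5% against 57.1% and 40.9% against 39.3%. The medians of the major share were close, 78.5% against 80%, and both lay by the threshold: at 70% the G1 share was 80.4% and at 90% it was 0%. The 2 batches of G1 cells differed in which X was read, with 28.5% of allelic UMIs from the C57BL/6J chromosome in batch 2 and 48.3% in batch 3. Where Xist UMIs of 1 allele alone were seen, 77.8% of the X-linked UMIs of G1 cells came from the other chromosome, against 76.8% in the other classes.

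**Figure D5:**
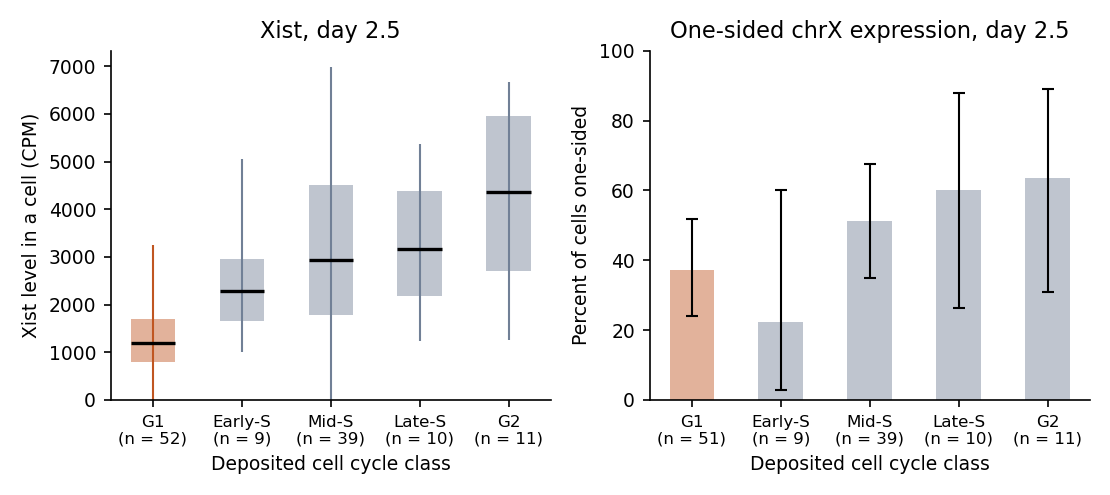
Left, Xist level per cell in CPM at day 2.5 for cells of the allele table: the black line is the median, the box the quartiles and the thin line the range. Right, the percent of cells with one-sided X expression with 95% Clopper-Pearson intervals; among the G1, S and G2 classes G1 has the lowest Xist median, 1191 CPM, and G1 has 37.3% one-sided cells.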

How the data were processed

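HiRES gave RNA and chromatin contacts for cells of day 0.5 and day 2.5, 1 sample each. In the expression table the authors give expected counts, UMIs per cell for 39300 genes, and 11.1% of its values above 0 are not whole. The deposited allele table gives counts of UMIs per parental genome. The authors' cell table gives the class, batch, UMI counts, cycle scores, and the fraction of contacts and of exonic UMIs. The submitters' processing notes name GRCm38, while the sources used here do not give the aligner, counting rule, strand or the rule behind the class. Columns of cells not named in the labels (1101 of the expression table and 893 of the allele table) were not used.

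Counts were summed over the cells of a class and scaled to a total of 1000000 (CPM), and genes were compared as described, with a pseudocount of 5 CPM and a minimum of 200 UMIs. No test across genes was run, since each day is 1 sample and p-values over cells would measure only the spread between cells. Doublets were not called. Named genes were the 10 highest and 10 lowest of each comparison (8 for the difference of day differences), leaving out numbered models and ribosomal or histone copies, together with the class markers and the members of 22 gene lists with the highest levels or differences. Of these, 1 gene is not reported here. Members and lists were chosen with earlier results of these data known. The scripts were tested on simulated data. Alternatives covered scaling, pseudocount, the minimum of UMIs, thinning to 5000 UMIs, class weights, batches and cells left out. G1 cells gave 496590 UMIs at day 0.5 and 1138151 at day 2.5, so that intervals are wider at day 0.5. Python 3.11.15, numpy 2.4.6, pandas 2.3.3, scipy 1.17.1 and matplotlib 3.10.9 were used.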

Additional observations from a re-analysis of the deposited data

Results flagged for a closer look

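Neat1, a long noncoding RNA that builds paraspeckles, had opposite differences at the 2 days. Its level in G1 cells lay above that of the other classes at day 0.5 (306.1 against 168.8 CPM, log2 difference 0.84, batches 1.07 and 0.68) and below it at day 2.5 (114.2 against 266.4 CPM, log2 difference -1.19, batches -1.68 and -0.86). Its day difference was -1.38 inside G1 (-2.06 in batch 2) and 0.64 in the other classes (0.30 in batch 2). Garnl3, a gene of a GTPase-activating protein family, stood at 165.1 against 96.2 CPM at day 0.5 (0.75, batches 0.92 and 0.61) and at 114.7 against 177.3 CPM at day 2.5 (-0.61, batches -0.73 and -0.38). Both genes passed 1.5-fold at both days in opposite directions. The same sign in both batches of a day is part of the rule for counting a gene, so it is not separate support. The differences between the days were not tested.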

How the results depend on the processing

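Counts of genes depended mainly on the minimum of UMIs, which also sets how many genes are compared, while their percent of the genes compared moved less. Percents are given in the order higher and lower at day 0.5, higher and lower at day 2.5, higher and lower between days inside G1, and past 1.5-fold in the difference of day differences. The values reported were 5.19 and 7.07% of 3197 genes, 7.84 and 5.66% of 3660, 22 and 14.2% of 2155, and 11.8% of 2152. With a minimum of 100 UMIs they were 6.28 and 7.98% of 5126, 8.48 and 5.9% of 5614, 21.7 and 16.9% of 3877, and 15% of 3871. With a minimum of 400 UMIs they were 3.98 and 6.59% of 1685, 6.06 and 6.16% of 2029, 22.5 and 13.2% of 961, and 10.1% of 961. With no minimum they were 4.17 and 5.12%, 3.89 and 2.62%, 8.82 and 9.93%, and 14.1%, each of 39300. With cells thinned to 5000 UMIs they were 5.22 and 7.48% of 1150, 6.17 and 7.41% of 1215, 21.9 and 16.4% of 597, and 12.1% of 597. In batch 2 alone, an alternative chosen after seeing the data, they were 5.41 and 7.28% of 1868, 7.36 and 7.63% of 2241, 23.6 and 13.8% of 1028, and 14.5% of 1027. In the libraries that hold a G1 cell and a cell of another class, also chosen after seeing the data, they were 6.71 and 9.1% of 879, 7.87 and 8.08% of 1856, 21.2 and 14.5% of 1258, and 16.6% of 1176. The counts behind these percents lay over 1.5 times from those reported, except the genes lower at day 2.5 in batch 2 (171 against 207) and in those libraries (150), and the difference in those libraries (195 against 254), and under the other alternatives run all of these counts stayed within 1.5 times. Like counts can hold different genes. With equal weight for every other class, 54.4 to 63.9% of the genes reported were called again, against 68.5% or more in every comparison and direction under the other alternatives with like counts. With a minimum of 400 UMIs this was 32.9 to 60.4%, in batch 2 28.9 to 54.1%, after thinning 15.1 to 30.4%, and in the libraries of both kinds of cell 14.5 to 51.3%, with fewer genes compared in each.

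The median number of contacts in G1 cells at day 2.5 was 164026 in batch 2 (146150 over both). The Xist level at day 2.5 was 1375 CPM in cells of the allele table (842.6 in all G1 cells), and its ratio was 0.503 in batch 2 alone (0.454). The share of G1 cells with one-sided X expression at day 2.5 was 80.4% at a threshold of 70% and 0% at 90% (37.3% at 80%). The ratio for genes over 600 kb was 0.788 in batch 2, 0.734 without M cells and 0.788 for genes over 300 kb at day 0.5 (0.761), and 0.781, 0.742 and 0.836 at day 2.5 (0.754).

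Of 583 medians of gene lists recomputed, 1 reversed: the licensing list at day 2.5 was at -0.054 with equal weight for every other class (0.59). Of 1068 values of named genes recomputed, 207 were no longer counted as higher or lower. A gene also leaves the count where it has too few UMIs to be compared or its batches differ in sign. The 207 may thus include values still past the threshold. Only 1 value reversed, Nxph1 at day 0.5, at 0.28 in the libraries of both kinds of cell. The causes were not tested. Scaling by median ratios moved the median of all genes from 0.02, 0.03 and 0.05 to 0. The alternative with all cells of the cell table holds the same cells. No paired analysis was possible because each day is 1 sample and the replicate numbers of the libraries were given in accession order, so that they pair none; cells of 1 library were compared only as summed groups.

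Depth limits the comparison most at day 0.5, where G1 cells gave 496590 UMIs and 3 genes of the p53 and 4 of the X-inactivation centre list reached the minimum, against 6 and 7 at day 2.5. Cells of 1 day are not independent cultures, so no spread between cultures was measured.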
